A study of Caenorhabditis elegans with 8 samples.

Results

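The genes described here are the potassium channel genes of Caenorhabditis elegans and the genes of a pair of channel partners. They were chosen by symbol, with earlier results of these data known. The symbols were twk-, kvs-, kqt-, irk-, slo- or kcnl- with a number, and egl-2, egl-23, egl-36, exp-2, shk-1, shl-1, shw-1, shw-3, unc-58, unc-93, unc-103, sup-9 and sup-10. The array carried probes for 70 such genes, out of 19794 genes that could be named on it. Of their probes, 118 were assigned through the locus tag and 24 through the RefSeq accession, out of 43603 probes in all. Another 4 genes with matching symbols, irk-3, kqt-3, twk-4 and twk-49, had no matching probe and were not analysed here. A gene was tested where a probe stood well above background on every array of N2, of the mutant or of both, which held for 110 probes of 62 genes.

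Potassium channels let potassium leave the cell, which brings the membrane back towards its resting potential and makes a neuron or muscle less likely to fire. Tandem-pore (TWK) channels carry leak currents that set the resting potential, voltage-gated channels end action potentials, and calcium- or sodium-activated channels open when activity raises these ions in the cell. Inward rectifiers hold the membrane near rest, and partner proteins such as UNC-93 and SUP-10 tune a tandem-pore channel, SUP-9.

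The samples were 4 of the aptf-1(gk794) mutant and 4 of the wild type N2, all hermaphrodite larvae labelled as L4 sleep and taken as whole animals. gk794 is a deletion allele of aptf-1, which encodes an AP2 transcription factor that the study examined in the sleep neuron RIS. Both genotypes were kept at 21.5 °C on plates with E. coli OP50 and received no other treatment. About 200 animals were pooled for each sample, which was read on 1 single-color Agilent array. Levels are the log2 of the processed signal relative to the 75th percentile of the array, and differences are mutant minus N2. The labels do not say whether samples of a genotype came from separate cultures, so p-values measure the spread between these samples. In RNA of whole larvae, fewer cells of a type and less RNA per cell cannot be told apart.

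On each array 72.2% to 79.7% of the spots stood well above background, with 0 saturated spots. N2 lay at positions 1 and 2 and the mutant at positions 3 and 4 of each of 2 slides, so position and genotype cannot be told apart. The first principal component (35.9% of the variance) separated mutant replicates 2 and 4, both at position 4, from the other 6 arrays. The aptf-1 probe had levels of -5.34, -5.24, -5.18 and -5.58 in N2 and of -5.96, -7.22, -4.29 and -7.13 in the mutant. The top value was that of the array labelled as mutant replicate 3, which goes against its label, and directions below rest on the labels. Whether this probe lies in the deleted sequence was not analysed here. The neuropeptide gene flp-11 was lower by 1.18 on the log2 scale (SE 0.07, adjusted p = 0.00275 in limma). Its levels on the mutant arrays (-0.71 to -0.64) lay below all N2 arrays (0.45 to 0.60). Mutant replicate 3 was at -0.69, so by flp-11 this array went with its label.

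The first question was which potassium channel genes differed between the genotypes. None of the 62 tested genes passed an adjusted p under 0.05 with a fold of at least 1.5 in limma, where 0.0928% of all 18312 genes and unnamed targets did. Of the 110 probes, 0 passed, against 0.0594% of all 32005 probes tested. The smallest adjusted p of a channel gene was 0.317 (twk-26), and that of a channel probe was 0.264 (1 of the probes of twk-43). At an unadjusted p under 0.05, 9 of 62 channel genes (14.5%) differed, 2 with higher and 7 with lower means in the mutant. Among all genes 12.2% did, 4.48% higher and 7.76% lower, so the share in the channel genes was near that of the array. With only probes above background on all 8 arrays the gene count was 8, without twk-9. By probe, the count was 10 of 110, beside 11.6% of all probes.

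The differences of the 62 genes ran from -0.72 (twk-7) to 0.56 (twk-11) on the log2 scale. Their median was -0.03, and the median of all genes was also -0.03. The mutant mean was lower for 35 genes and higher for 27, while 54.7% of all genes had a lower mean. For 42 of the 62 genes the 95% interval of the difference lay within 1.5-fold in either direction, as it did for 61.7% of all genes, so changes of that size lay outside the interval for these 42. For the other 20 genes the interval reached past 1.5-fold, and such a difference was not resolved with 4 arrays per genotype. Only twk-7 and twk-39 had a measured difference beyond 1.5-fold, beside 8.43% of all genes.

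**Figure D1:**
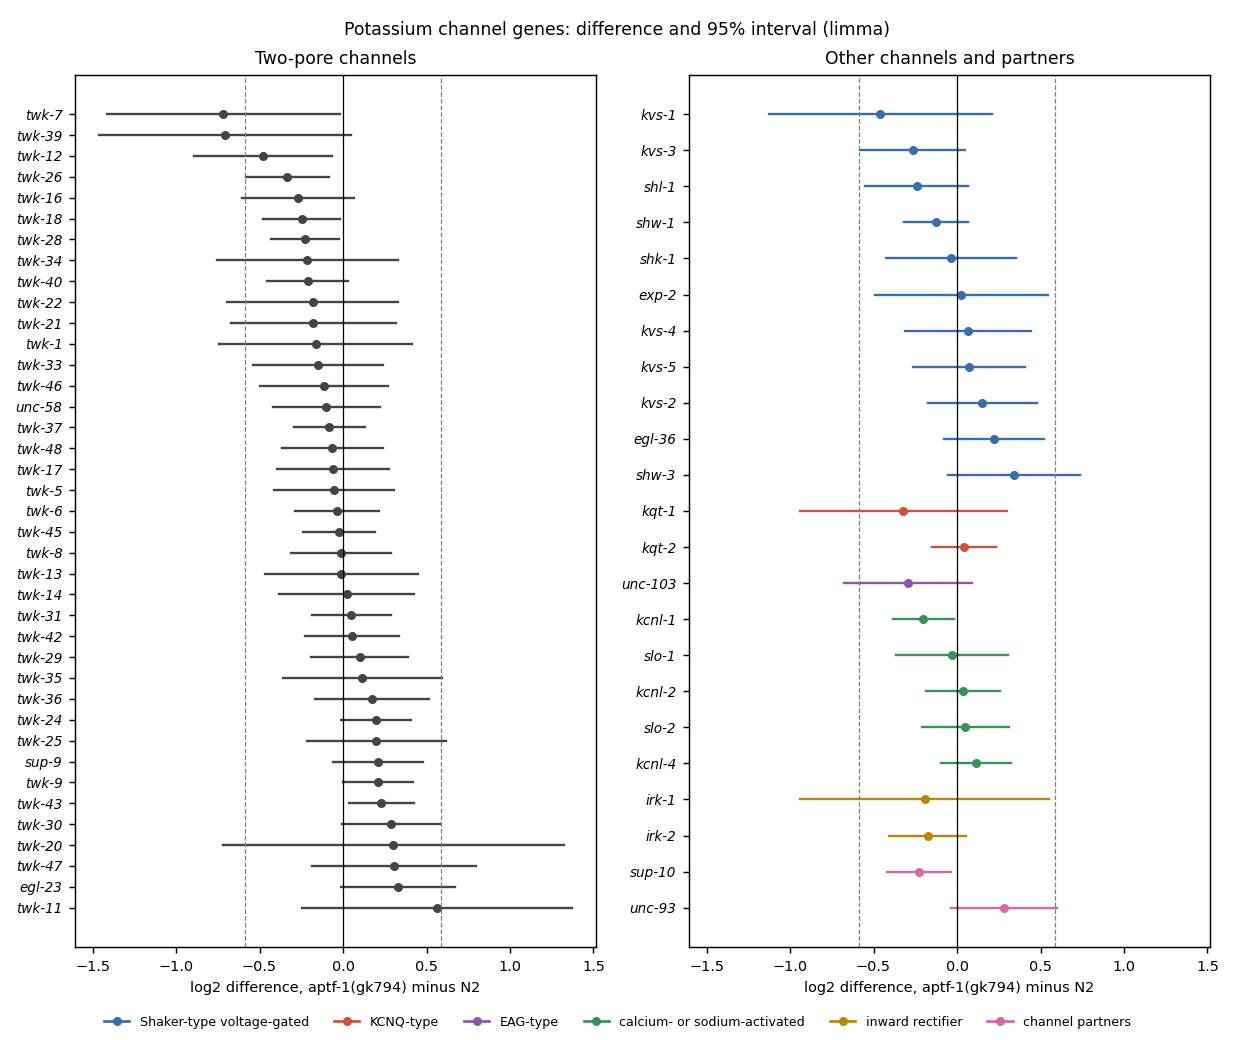
Log2 difference of each tested gene, mutant minus N2, with its 95% interval from limma, for tandem-pore channels on the left and the other classes on the right. Dashed lines mark 1.5-fold in either direction, and all 62 points lie between -0.72 and 0.56.

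The tandem-pore channels were the largest class, with 39 of 45 genes tested. None passed the adjusted threshold. At an unadjusted p under 0.05, 7 of the 39 (17.9%) differed, 5 with lower and 2 with higher means in the mutant, beside 12.2% of all genes (7.76% lower and 4.48% higher). Of those with higher means, twk-9 rested on a probe that passed the filter only through the mutant arrays. The median of the class was -0.04. The gene with the smallest p was twk-26, whose N2 arrays had levels of -3.26, -2.99, -2.90 and -3.06 and whose mutant arrays had -3.47, -3.39, -3.20 and -3.50. The mutant arrays were the lower ones except that mutant replicate 3 lay just above N2 replicate 1. The difference was -0.33 (SE 0.11), a mean signal of 79.4% of N2, with an adjusted p of 0.317 in limma.

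twk-18 encodes a tandem-pore channel of body wall muscle, and gain-of-function alleles of it paralyze the worm. Its levels were -0.72, -0.45, -0.45 and -0.71 in N2 and -0.84, -0.76, -0.96 and -0.77 in the mutant. All mutant arrays lay below all N2 arrays, with a difference of -0.25 (SE 0.10, adjusted p = 0.381 in limma). Of the 62 genes, 6 had groups that did not overlap in this way, 4 lower and 2 higher in the mutant, beside 8.1% of all genes (5.01% lower and 3.1% higher). The 4 lower ones were twk-18, twk-28, sup-10 and kcnl-1, and the 2 higher ones were twk-9 and twk-43. For twk-9 this rested on a probe that passed the filter only through the mutant arrays, as described with its values. For twk-28 the separation held only in the gene mean, as the groups overlapped on each of its 3 probes.

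twk-12 had levels of -3.04, -2.75, -2.99 and -3.39 in N2 and of -3.43, -3.16, -3.74 and -3.76 in the mutant. The groups overlapped through mutant replicate 2 and N2 replicate 4. The difference was -0.48 (SE 0.18, adjusted p = 0.365 in limma), and it was -0.54 without both arrays at position 4. twk-7 encodes a channel known to restrain locomotor activity, and it had the lowest difference of all, -0.72 (SE 0.30, adjusted p = 0.403 in limma). It was tested on 1 of its 2 probes, as the other was well above background on 0 N2 arrays and 2 mutant arrays. On the tested probe the levels were -3.57, -3.46, -4.14 and -3.18 in N2 and -3.70, -4.73, -3.96 and -4.82 in the mutant. The low values were those of mutant replicates 2 and 4, the arrays at position 4, while mutant replicates 1 and 3 lay within the range of N2. Without both arrays at position 4 the difference of twk-7 was -0.25, with normexp background correction it was -0.29, and in a fit with terms for slide and linear position it was 0.37. The size of the twk-7 difference thus depended on these arrays, and its direction on the position term. The normexp values also start from another signal column and carry an offset of 50, and which of these steps changed the size was not tested.

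twk-39, chosen for description after its values were seen, had a like pattern on both of its probes. Its levels were -4.10, -4.36, -5.07 and -4.58 in N2 and -4.68, -5.66, -4.72 and -5.88 in the mutant. The difference was -0.71 (SE 0.33, adjusted p = 0.421 in limma), and without both arrays at position 4 it was -0.17. With the position term it was 0.95. Of its 2 probes, 1 was well above background on only 3 mutant arrays and so was tested only through N2, its higher group. On the other probe the difference was -0.67, and the groups overlapped (-5.18 to -4.15 in N2 and -5.90 to -4.57 in the mutant).

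Higher means were found for twk-43 and twk-9. twk-43 had levels of -3.94, -3.91, -3.98 and -3.95 in N2 and of -3.81, -3.82, -3.55 and -3.69 in the mutant, with a difference of 0.23 (SE 0.08, adjusted p = 0.359 in limma). All mutant arrays lay above all N2 arrays in this gene mean. The differences of its 5 probes were -0.01, 0.02, 0.34, 0.37 and 0.43. twk-9 had levels of -4.54, -4.47, -4.37 and -4.43 in N2 and of -4.35, -4.05, -4.28 and -4.29 in the mutant, a difference of 0.21 (SE 0.09, adjusted p = 0.406 in limma). The groups came close to each other, and most of the difference came from 1 of its 3 probes (0.45, beside 0.07 and 0.11), which was well above background on only 3 N2 arrays and so was tested only through its higher group. On its other 2 probes the groups overlapped (-3.75 to -3.61 in N2 and -3.71 to -3.46 in the mutant), with a difference of 0.09, so no difference of twk-9 is read from the gene mean.

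twk-28 had levels of -2.01, -2.17, -2.24 and -2.13 in N2 and of -2.28, -2.35, -2.32 and -2.51 in the mutant. In this gene mean the groups did not overlap, and the difference was -0.23 (SE 0.09, adjusted p = 0.373 in limma). Of its 3 probes, 1 had a difference of -0.55, and the others had -0.15 and 0.01. On each single probe the groups overlapped. In the position-term fit the difference was 0.01 for twk-28 and -0.04 for twk-9, so neither kept its direction there.

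**Figure D2:**
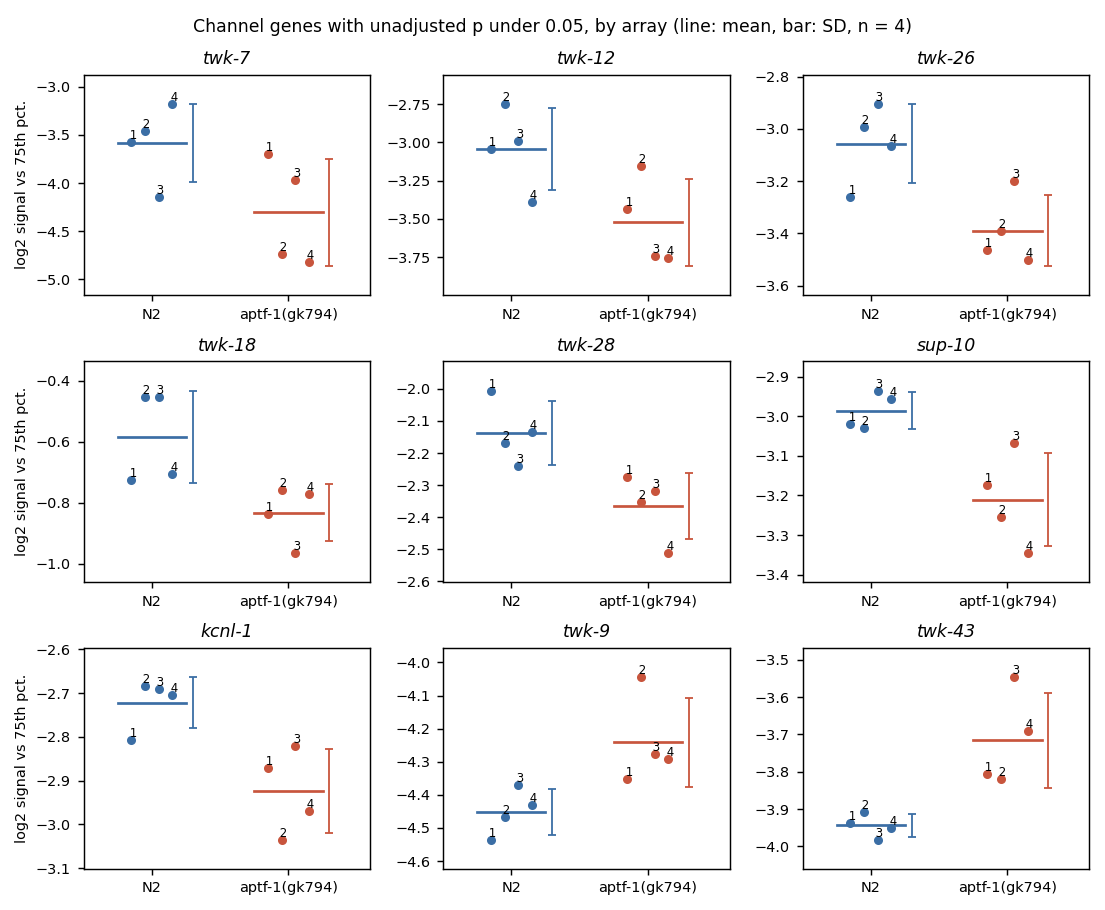
Level of each of the 9 genes with an unadjusted p under 0.05 on the 8 arrays, as log2 signal relative to the 75th percentile of the array. Points are arrays numbered by replicate, lines are means and bars are SD (n = 4 per genotype), and each panel has its own vertical axis. The mutant points lie below all N2 points for twk-18, twk-28, sup-10 and kcnl-1 and above them for twk-9 and twk-43. For twk-28 this holds only in the gene mean, and for twk-9 it rests on a probe tested only through the mutant arrays.

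Among other tandem-pore channels, egl-23, whose gain-of-function alleles impair egg laying, had levels of -1.77, -1.70, -1.57 and -1.43 in N2 and of -1.47, -1.13, -1.57 and -1.0 in the mutant. The highest values were those of mutant replicates 2 and 4, both at position 4, and the other mutant arrays lay within the N2 range. The difference was 0.33 (SE 0.15, adjusted p = 0.412 in limma), it was 0.10 without both arrays at position 4, and it was -0.37 with the position term. unc-58, in which gain-of-function alleles cause a shaking movement defect, differed by -0.10 (95% interval -0.42 to 0.22). twk-40, which sets the excitability of command interneurons for movement, differed by -0.21 (95% interval -0.45 to 0.03). twk-11, described after its values were seen, had the highest difference, 0.56 (SE 0.35), and an adjusted p of 0.514 in limma. It was tested on 1 of its 4 probes, that on the transcript F20A1.7a. Its N2 arrays lay close together, between -4.64 and -4.31, and its mutant arrays were spread from -4.92 (replicate 2) to -3.03 (replicate 4).

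SUP-9 is a TASK-like channel that forms a complex with UNC-93 and SUP-10 in muscle, and their means in the mutant lay on both sides of N2, none past the threshold. sup-9 had levels of -3.54, -3.94, -3.61 and -3.63 in N2 and of -3.69, -3.36, -3.41 and -3.43 in the mutant, and its difference was 0.21 (SE 0.12, adjusted p = 0.480 in limma). unc-93 had levels of -2.08, -2.18, -2.04 and -1.68 in N2 and of -1.66, -1.99, -1.59 and -1.63 in the mutant, and its difference was 0.28 (SE 0.14, adjusted p = 0.443 in limma). The groups overlapped for both genes. sup-10 had levels of -3.02, -3.03, -2.93 and -2.96 in N2 and of -3.17, -3.25, -3.07 and -3.34 in the mutant. All mutant arrays lay below all N2 arrays, by a mean difference of -0.23 (SE 0.08, adjusted p = 0.357 in limma), and both sup-10 probes had a lower mean (-0.19 and -0.26). The difference of sup-10 was -0.24 on slide 1 and -0.21 on slide 2, and without both arrays at position 4 it was -0.14.

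Of the Shaker-type voltage-gated channels, 11 of 11 genes were tested, 0 had an unadjusted p under 0.05, and the median difference was 0.03. For 9 of them the 95% interval lay within 1.5-fold. shk-1, the Shaker homolog that shapes action potentials of neurons and muscle, differed by -0.04 (95% interval -0.43 to 0.35). shl-1, the Shal homolog, had levels of -4.67, -4.77, -4.29 and -4.72 in N2 and of -4.66, -5.01, -4.79 and -4.95 in the mutant. The lowest arrays were those at position 4, the groups overlapped, and the difference was -0.24 (SE 0.13, adjusted p = 0.473 in limma). egl-36, the Shaw-type channel in which gain-of-function alleles impair egg laying, differed by 0.22 (95% interval -0.08 to 0.52). exp-2, which repolarizes the pharyngeal muscle, differed by 0.03 (95% interval -0.49 to 0.54). Its levels were -2.62, -2.79, -2.17 and -2.03 in N2 and -2.24, -2.89, -2.13 and -2.25 in the mutant, so mutant replicate 2 lay well below the other mutant arrays.

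kvs-1 encodes a voltage-gated channel of sensory neurons. Its gene mean was -2.61, -2.57, -2.61 and -2.78 in N2 and -2.39, -3.52, -2.74 and -3.76 in the mutant. The low arrays were again mutant replicates 2 and 4. The difference was -0.46 (SE 0.29, adjusted p = 0.518 in limma), and without both arrays at position 4 it was 0.08. Both probes of kvs-1 were well above background on all 8 arrays with differences of -1.07 (SE 0.53) for the probe on the transcript C53C9.3a and 0.15 (SE 0.24) for the other.

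The KCNQ-type and EAG-type channels, which help to set firing thresholds and the length of muscle action potentials, had few members. kqt-1 had levels of -4.63, -4.42, -4.21 and -3.75 in N2 and of -4.11, -5.0, -4.23 and -4.97 in the mutant, with a difference of -0.32 (SE 0.27, adjusted p = 0.604 in limma). Its 2 low arrays were mutant replicates 2 and 4, and without them the difference was 0.08. kqt-2 was among the steadiest members, with a difference of 0.04 (95% interval -0.15 to 0.23). unc-103, the ERG homolog that keeps the egg-laying and male mating muscles from contracting at the wrong time, was tested on 1 of its 5 probes, at levels of -5.38, -5.46, -5.82 and -5.66 in N2 and of -5.63, -6.17, -5.60 and -6.08 in the mutant. The groups overlapped, and the difference was -0.29 (SE 0.17, adjusted p = 0.484 in limma). Without both arrays at position 4 it was -0.04, and with the position term it was 0.53. The EAG homolog egl-2 stood well above background on 0 of 8 arrays.

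Of the calcium- or sodium-activated channels, 5 of 6 genes were tested, and all 5 intervals lay within 1.5-fold. slo-1 encodes the BK channel that limits transmitter release. Its levels were -3.53, -3.29, -3.05 and -2.86 in N2 and -3.27, -3.30, -3.14 and -3.13 in the mutant, with a difference of -0.03 (95% interval -0.37 to 0.31). The mutant arrays lay inside the range of N2. slo-2, a second large-conductance channel, had levels of -1.23, -1.19, -0.91 and -0.92 in N2 and of -1.17, -0.99, -1.05 and -0.84 in the mutant. The difference of slo-2 was 0.05 (95% interval -0.21 to 0.31) and that of its 4 probes lay between 0.01 and 0.09. All 4 slo-2 probes were lower on N2 replicates 1 and 2 than on N2 replicates 3 and 4. With the position term the slo-2 difference was -0.44.

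The kcnl genes encode small-conductance calcium-activated channels. kcnl-1 had levels of -2.81, -2.68, -2.69 and -2.70 in N2 and of -2.87, -3.03, -2.82 and -2.97 in the mutant. All mutant arrays lay below all N2 arrays, but mutant replicate 3 and N2 replicate 1 nearly met, and the difference was -0.20 (SE 0.08, adjusted p = 0.377 in limma). Of its 2 probes, 1 had a difference of -0.34 and the other -0.07. kcnl-2, which acts in egg laying, differed by 0.03 (95% interval -0.19 to 0.26), and kcnl-4 by 0.12 (95% interval -0.09 to 0.32).

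Both tested inward rectifiers had lower means in the mutant without passing. irk-1, which lets peptide signals silence the egg-laying HSN neurons, varied widely, with levels of -5.58, -4.57, -4.90 and -4.29 in N2 and of -4.49, -4.79, -5.29 and -5.55 in the mutant. Its difference was -0.19 (SE 0.32), and it had opposite signs on slide 1 (0.60) and slide 2 (-0.99). irk-2 differed by -0.18 (SE 0.10, adjusted p = 0.479 in limma), with overlapping groups.

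8 genes were not tested. egl-2, kcnl-3, twk-23 and twk-44 stood well above background on 0 arrays, and twk-32 did so only on 2 mutant arrays and on 0 N2 arrays. twk-2 and twk-10 were well above background on 3 arrays each and twk-3 on 6. No fold is given for these 8 genes. Among the 110 tested probes, 8 were not well above background on all 8 arrays, those of kvs-3, twk-20 and twk-47, single probes of twk-9, twk-39 and twk-45, and a pair of shk-1 probes.

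Some genes were read by several probes, which can lie on different transcripts of the gene. 21 genes had more than 1 tested probe and 41 had 1. In 9 of the 21 genes the probe differences had both signs. shk-1 had 8 tested probes, whose differences ran from -0.69 (the probe on ZK1321.2a) to 0.23. The shk-1 probe on ZK1321.2c had a difference of 0.18 (SE 0.08, adjusted p = 0.44 in limma), and the probe on ZK1321.2a had an adjusted p of 0.49. No probe of shk-1 passed.

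**Figure D3:**
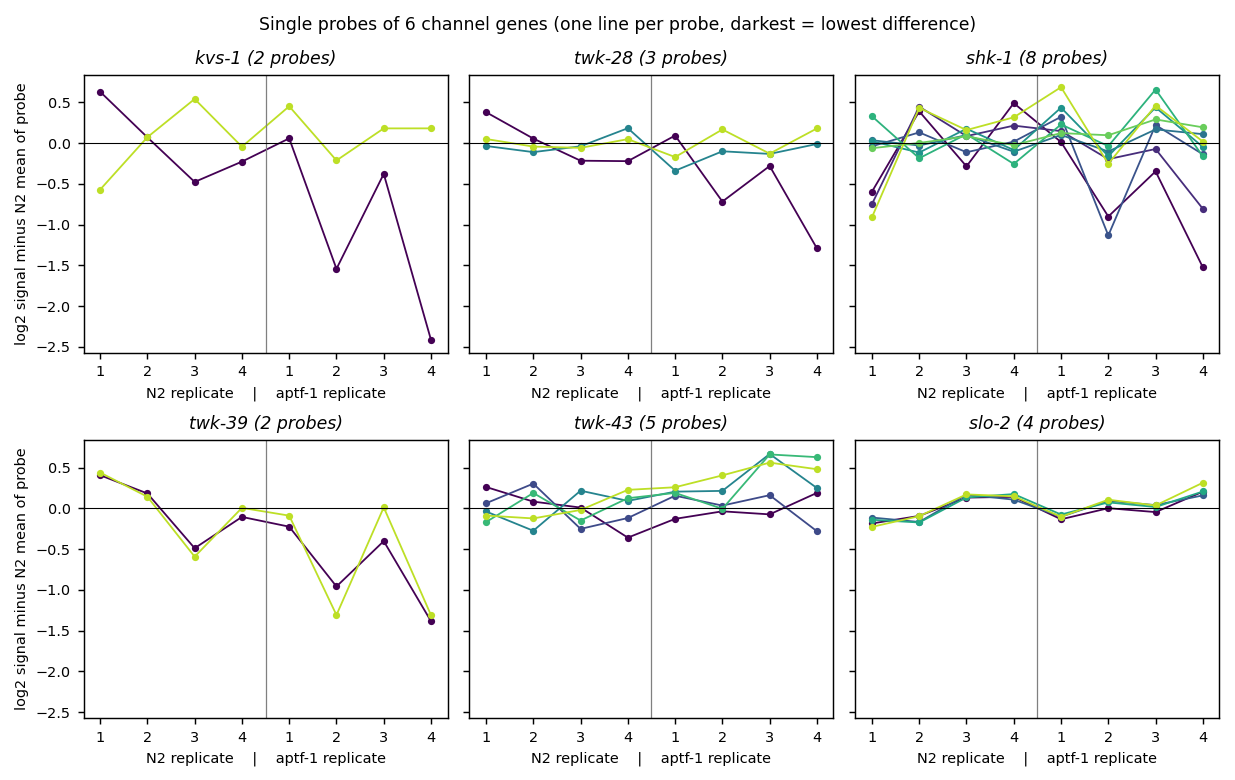
Single probes of 6 channel genes across the 8 arrays, as log2 signal minus the N2 mean of the same probe, 1 line per probe. The probes of slo-2 and of twk-39 run together, while 1 probe each of kvs-1 and twk-28 is lowest on mutant replicates 2 and 4 and their other probes are not.

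The arrays at position 4 were the 2 lowest of all 8 in 11 of the 62 genes (17.7%), near the 13.5% of all genes, and the 2 highest in 3 genes (4.84%), beside 8.04% of all genes. Nothing about the channel genes in particular is read from these shares. The 11 genes were twk-7, twk-28, twk-39, twk-40, shk-1, shl-1, kvs-1, kqt-1, unc-103, kcnl-1 and sup-10, and the 3 were egl-23, kvs-4 and twk-42. Without both arrays at position 4, the differences of the 11 genes lay between -0.25 (twk-7) and 0.24 (shk-1). What set these arrays apart was not tested.

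**Figure D4:**
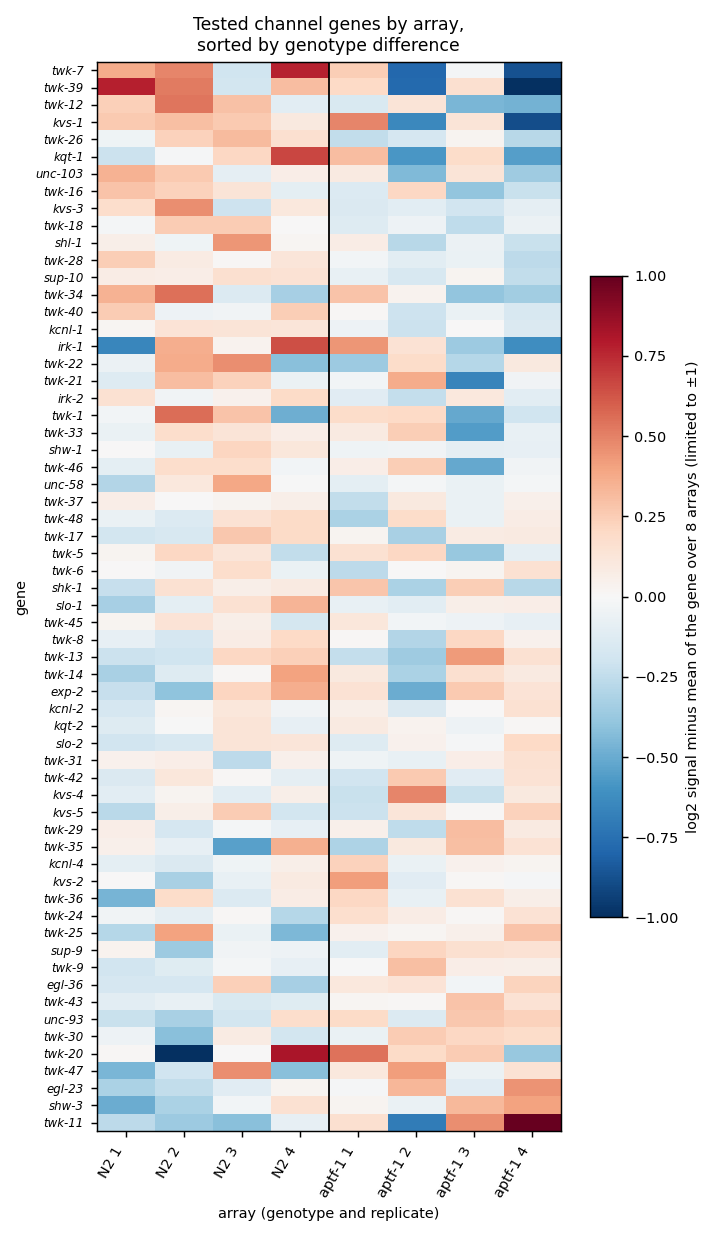
Level of all 62 tested genes on the 8 arrays, as log2 signal minus the mean of the gene over all arrays, with colors limited to 1 in either direction, sorted by the genotype difference. In the rows of twk-7, twk-39, kvs-1, kqt-1 and unc-103 the lowest arrays are mutant replicates 2 and 4, at position 4.

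Genes also differed in how steady they were within a genotype. The median within-group SD of the 62 genes was 0.21 on the log2 scale, and that of all genes was 0.20. The steadiest were kcnl-1, kqt-2 and sup-10 (SD 0.08 to 0.09), and the most variable were twk-39, twk-11 and twk-20 (SD 0.53 to 0.72). The low SD of kcnl-1 is that of the mean of 2 probes, whose own SDs in N2 were 0.14 and 0.21. twk-20 owed its spread to N2 replicate 2, at -6.74 beside -5.29, -5.29 and -4.48. The twk-20 probe was well above background on only 3 N2 arrays. twk-13 varied without a genotype difference (-0.01, SE 0.20), with levels of -3.17, -3.15, -2.75 and -2.72 in N2 and of -3.19, -3.31, -2.52 and -2.80 in the mutant. Its 3 probes had differences between -0.10 and 0.05. twk-13 and twk-20 were chosen after their values were seen.

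Proteins that act on the channels were looked at next. The list of channel regulators held the KCNE-like subunits mps-1 to mps-4, the BK partner bkip-1, and ctn-1, dyb-1, islo-1 and erg-28, which place or traffic SLO-1. All 9 were tested, 0 passed, and 0 had an unadjusted p under 0.05. Their differences ran from -0.26 (islo-1) to 0.20 (mps-1), and all 9 intervals lay within 1.5-fold. The voltage-gated calcium channels and the NALCN-type leak channel depolarize the cell and so oppose the potassium channels. Of 12 listed genes 9 were tested, 0 passed and 0 had an unadjusted p under 0.05, with differences from -0.22 (nlf-1) to 0.11 (nca-2). For egl-19, the calcium channel of muscle, the difference was -0.04 (95% interval -0.37 to 0.29), and for unc-2, the presynaptic calcium channel, it was -0.08 (95% interval -0.45 to 0.29).

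Most of these channels act in neurons and muscle, so markers of tissues and of the molt were read from the same arrays. All 10 neuron markers were tested, with a median difference of 0.05, and 2 of them had an unadjusted p under 0.05, egl-3 (0.28) and unc-64 (-0.28). Their summed linear signal, relative to the 75th percentile, was 13.3 to 15.1 on N2 arrays and 13.8 to 16.9 on mutant arrays. All 10 muscle markers had a lower mean in the mutant (median -0.15, 0 with an unadjusted p under 0.05), as did 54.7% of all genes. The muscle markers had summed signals of 289.7 to 303.4 in N2 and of 259.7 to 287.9 in the mutant. Of 6 intestine markers, 3 had an unadjusted p under 0.05, all lower, led by act-5 (-0.55). The summed signals of the 6 were 249.2 to 334.9 in N2 and 210.8 to 254.2 in the mutant. The sum over all genes tested was also lower in the mutant, 59801 to 64990 beside 65416 to 78319 in N2. Nothing about a tissue in particular is read from these sums. The counts at that threshold were 0 of 5 for the pharynx, 2 of 5 for the epidermis (1 higher, rol-6, and 1 lower, elt-3), 1 of 6 for the germ line and 1 of 8 for molt timing. Among all genes 12.2% had such a p, 4.48% higher and 7.76% lower. None of these markers passed the adjusted threshold.

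Of the 8 molt markers, some were spread unevenly over the arrays. Others were not, such as nhr-23, with a difference of -0.03 and levels of -3.01 to -2.60. mlt-10, a gene of the molting cycle, had levels of 2.19 and 1.54 on mutant replicates 3 and 4 and of -3.79 to -1.97 on the other 6 arrays. lin-42, the Period homolog that times the molts, had levels of -0.94, -0.81, -2.18 and -1.73 in N2 and of -2.21, -2.40, -2.44 and -2.28 in the mutant. The arrays thus differed in mlt-10 and lin-42 within and between genotypes. The part of tissue and molt markers in the channel values was not tested.

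The count of 9 genes at an unadjusted p under 0.05 rested on single arrays. Without aptf-1(gk794) replicate 4 it was 1 (twk-26), without N2 replicate 1 and without N2 replicate 2 it was 4 each, and without both arrays at position 4 it was 3. With only probes above background on all 8 arrays it was 8, and twk-9 was not among them (difference 0.09). With normexp, the 9 genes kept their direction, with differences between -0.37 (twk-12) and 0.11 (twk-43).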

How the data were processed

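RNA of 4 aptf-1(gk794) and 4 N2 samples was hybridized to single-color Agilent arrays, with groups and replicate numbers from the sample labels. The authors deposited the scanner output as linear spot intensity (Agilent Feature Extraction 10.7.3.1 in the headers), background-subtracted and not scaled between arrays. A further table that the authors deposited holds processed intensities with the same rank order on each array and equal medians over arrays, and it served only as an alternative. The study states a threshold of a 1.5-fold change, taken over here.

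Neither control spots nor outlier spots (18 to 62 per array) were used. Repeat spots of a probe were combined as the mean of their log2 processed intensity, from which the 75th percentile of the array was subtracted. Probes were named through the RefSeq gene table of WBcel235. Its design predates that build, so coordinates are left out, and no sequences are printed. The value of a gene is the mean of its tested probes. The filter keeps probes that are dim in 1 genotype. Genotype was fitted with lmFit and eBayes of limma 3.58.1 under R 4.3.3 (two-sided), with Benjamini-Hochberg adjustment of p across the tested probes, or across the tested genes and unnamed targets. 95% intervals come from the moderated standard errors. Arrays give no counts, so their number, 4 per genotype, limits the precision. The procedure was tested on simulated data drawn without array, slide or position effects, so that test does not cover such effects.

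The genes named were those called, those with an unadjusted p under 0.05, those whose groups did not overlap, channels with well-known roles whatever their values, members not above background in a group, aptf-1 and flp-11. Other members and markers are named as examples, after their values were seen. The members and lists were chosen with earlier results of these data known. No list was tested as a set. Alternatives were quantile normalization, median scaling, normexp (offset 50), the deposited values, no filter, a stricter filter (above background on all 8 arrays), a slide block, terms for slide and linear position, a replicate block, no fold threshold, the median of probes, and leaving out each array. Leaving out both arrays at position 4 was added after the data had been seen. normexp was run on median spot signals, since the files used here hold no mean spot signals. Python 3.11.15 with numpy 2.4.6, pandas 2.3.3, scipy 1.17.1 and matplotlib 3.10.9 was used for tables and plots.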

Additional observations from a re-analysis of the deposited data

Results flagged for a closer look

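In the 4 mutant or the 4 N2 arrays of each named gene, the array farthest from the rest was checked with Dixon's ratio, the gap to the nearest other array divided by the whole range, against its 95% critical value. Of 62 such groups 1 passed, where chance would give about 3.1. It was exp-2, the channel that repolarizes the pharyngeal muscle, on mutant replicate 2. The level there was -2.89, beside -2.25 to -2.13 on the other mutant arrays, a ratio of 0.837. This array lay at position 4 of its slide, and 2 N2 arrays had exp-2 levels nearly as low (-2.62 and -2.79).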

How the results depend on the processing

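In all 20 alternatives 0 potassium channel probes and 0 potassium channel genes were called, as were 0 genes of the regulator and the calcium and leak channel lists, and the smallest adjusted p of a channel gene was 0.266 in limma. Over the whole array, the 19 called probes became 12 with no filter, 0 with the slide and position term, 0 with the replicate block, 0 without both arrays at position 4, and 4 to 10 without 1 array. The 9 channel genes at an unadjusted p under 0.05 became 5 with no filter, 4 with the position term, 3 without both arrays at position 4, and 1 (without aptf-1(gk794) replicate 4) to 13 (without aptf-1(gk794) replicate 1) without 1 array. With 1 array left out, the median of the channel genes lay between -0.0777 (N2 replicate 1 left out) and 0.0013 (N2 replicate 3 left out), and that of the tandem-pore class from -0.0719 to -0.0071. The tandem-pore median was -0.0694 with the position term and -0.1237 without both arrays at position 4. With the position term the Shaker-type median was -0.1186 and that of the calcium- or sodium-activated class -0.0921. The EAG-type median, which is unc-103 alone, was 0.5341 with the position term, -0.0331 with normexp and -0.037 without both arrays at position 4.

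With the slide and position term the direction changed for 14 of 31 named genes: twk-7 (0.3673), twk-28 (0.0083), twk-9 (-0.0387), slo-2 (-0.4371), unc-103 (0.5341), twk-39 (0.9461), egl-23 (-0.37), kvs-1 (0.72), shk-1 (0.41), exp-2 (-0.20), sup-9 (-0.07), egl-36 (-0.05), kqt-2 (-0.05) and kcnl-2 (-0.05). It changed in all for 26 of the 62 channel genes (41.9%) and for 38.9% of all genes. Position follows genotype within each slide, and the median SE of the channel genes in that fit was 0.305, against 0.144 without the term. Of 589 values of named genes under alternatives, 474 stayed on their side of an unadjusted p of 0.05. Among these, genes under 0.05 in the main fit kept their direction. Other genes stayed within the within-group SD of their main value, and their direction was not checked. Of the rest, 76 lost an unadjusted p under 0.05 and 16 gained it in the same direction. Another 17 moved by at least that SD without crossing the threshold, also with the direction not checked. The last 6 reversed, which for genes not under 0.05 in the main fit was counted only at p under 0.05.

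Replicate numbers were not treated as pairs in the main fit. Deviations of same-numbered samples correlated at -0.110, 0.237, 0.0626 and 0.201, and only replicate 4 correlated best with its own number. So few values cannot settle whether same-numbered samples were collected together. The replicate block gave 6 channel genes at an unadjusted p under 0.05. Signal over background limits the dim genes, and 8 channel genes could not be tested.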
